A study of Mus musculus with 79 samples.

Results

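The 42 quadriceps arrays from mice on a chow diet (CD) were ordered by the difference between Dbp and Arntl, a pair of clock genes that cycle in opposite phase, and the 14 arrays with the highest difference were compared with the 14 with the lowest. The question was which other transcripts follow the state of the muscle clock at harvest. Each array was 1 pool of about 5 male mice of a single strain, drawn from the BXD family of inbred strains or from their parents C57BL/6J and DBA/2J, which were fasted from 6 pm to 9 am and sacrificed at 29 weeks of age. A second set of 37 arrays held pools of the same strains, likewise fasted and sacrificed at 29 weeks, that had been on a high fat diet (HFD) from 8 weeks of age. The 28 CD arrays compared here are 28 of 79 in the series. Because each strain had 1 array per diet, the strain, its cages and the day and hour of its harvest cannot be told apart, and the hour at which each pool was harvested is not given in the sources used here.

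The values are scores that behave as logarithms. Every array averages 8.0 over its probesets, and their SD is 2.0. Differences are given in these units, and a difference of 1 unit is not a fold of a stated base. Dbp minus Arntl on 1 array is called the clock index. The groups were chosen by this measured index, so within CD the values of Dbp, Arntl and the index are a description. Tests were run on other genes, and on the HFD arrays by themselves or paired with the CD array of the same strain. In whole muscle, fewer cells of a type and less RNA per cell cannot be told apart.

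In the clock of each cell, ARNTL (also called BMAL1) pairs with CLOCK or NPAS2 and switches on genes that carry E-boxes, among them the Per, Cry, Nr1d1, Nr1d2, Ciart and Dbp genes. The PER, CRY and CIART proteins feed back on ARNTL and CLOCK, while NR1D1 and NR1D2 repress, and the ROR receptors activate, genes with ROR elements such as Arntl, Npas2 and Nfil3. DBP, TEF and HLF activate genes with D-boxes, which NFIL3 represses. Skeletal muscle has such a clock, and fasting and glucocorticoids are known to reset clocks in peripheral tissues.

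On CD the clock index ran from -0.845 in BXD61 to 1.225 in DBA/2J, with a median of 0.266 over the 42 arrays. Dbp lay between 9.31 and 10.002 in the low index group (median 9.59, n = 14) and between 10.13 and 10.73 in the high index group (median 10.45, n = 14). Arntl lay between 9.46 and 10.20 in the low index group (median 9.90) and between 9.12 and 9.76 in the high index group (median 9.44). The ranges of Dbp did not meet and those of Arntl overlapped. Over the 42 arrays Dbp and Arntl ran in opposite directions (Pearson r = -0.648), and over the 37 HFD arrays likewise (r = -0.794). The borders between groups were narrow. The last array inside the low index group, BXD50, had an index of 0.171 against 0.173 in BXD79 just outside, and BXD84 at 0.663 was the last inside the high index group, with BXD75 at 0.56 outside. The mean index was 0.33 in the 18 CD arrays of batch 1 and 0.333 in the 24 of batch 2, and the groups held 8 and 6 arrays (low) and 6 and 8 arrays (high) of batches 1 and 2.

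**Figure D1:**
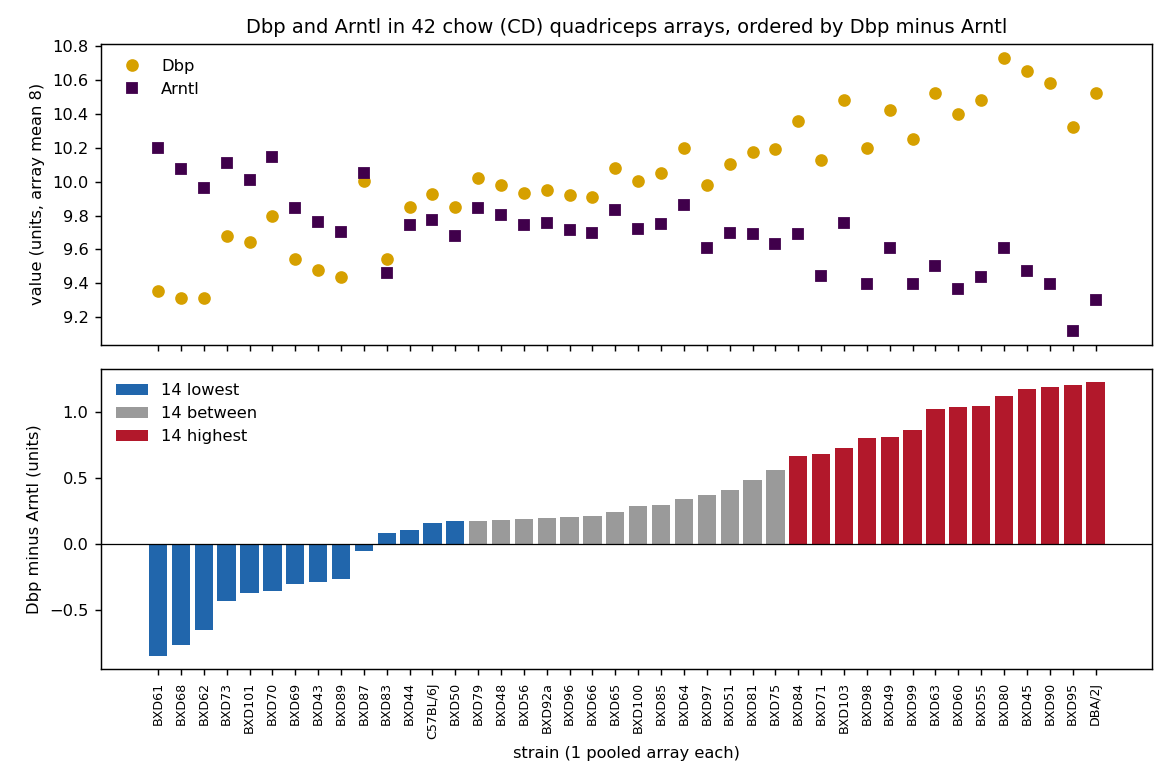
Values of Dbp and Arntl (top, units with an array mean of 8) and the clock index, Dbp minus Arntl (bottom, units), in the 42 CD arrays ordered by the index, 1 pooled array per strain. Blue bars are the 14 lowest arrays, red bars the 14 highest and grey bars the 14 between, and the index runs without a gap from -0.845 to 1.225.

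Of 22333 genes other than Dbp and Arntl, 5 differed between the high and low index groups on CD by limma at an adjusted p below 0.05, which is 0.0224% of those tested. Ciart and Nr1d2 were higher in the high index group, and Nfil3, Lrrc30 and the uncharacterised transcript A630005I04Rik were lower. Whether A630005I04Rik shares signal with Arntl, a gene of the index, was not tested. An unadjusted p below 0.05 was reached by 1339 genes. With no difference at all, a share of about 0.05 of the genes tested would be expected there, as for each such count below. The ranges of the groups overlapped for every one of the 22333 genes (0.0% without overlap). Thus 3 of the 5 were members of the clock loop itself, and no list of genes outside the core clock had a member called in this comparison.

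Ciart, which encodes a repressor of the CLOCK and ARNTL pair and is named Gm129 in the deposited table, showed the largest called difference. It lay between 7.37 and 9.00 in the low index group (median 8.32) and between 8.61 and 9.43 in the high index group (median 8.92). All 14 high index arrays were above the median of the low index group, and 6 were above all of its arrays. The difference was 0.75 units (SE 0.135, limma adjusted p = 0.0341), with 0.77 in batch 1 alone and 0.73 in batch 2 alone. A second probeset of Ciart gave a difference of 1.0 (SE 0.184, limma adjusted p = 0.0448).

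Nr1d2, which encodes the repressor REV-ERB beta, was spread little within the groups. It lay between 10.87 and 11.26 in the low index group (median 11.08) and between 11.21 and 11.41 in the high index group (median 11.31). Among the high index arrays, 12 of 14 were above every low index array. The difference was 0.23 units (SE 0.0437, limma adjusted p = 0.049). Nr1d2 was called in some alternative fits, but not after quantile normalizing again, with the muscle identity term or without strain BXD63. Its paralog Nr1d1, which encodes REV-ERB alpha, had medians of 12.83 and 13.01, and a difference of 0.13 (95% CI -0.01 to 0.27) that did not pass (limma adjusted p = 0.852).

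The clock negative arm list, which gathered repressors and E-box driven genes of the loop, held 11 genes, of which 2 were called higher on CD and none lower, beside 0.00896% of all genes called higher. Its median difference was 0.171 units, against -0.005 over all genes. Other members were placed the same way without passing the test. Per3, a Period gene, had medians of 9.05 and 9.31 and a difference of 0.25 (SE 0.0517, limma adjusted p = 0.121). Bhlhe40, which encodes the repressor DEC1, had a difference of 0.37 (SE 0.0886, adjusted p = 0.321), and its relative Bhlhe41 one of 0.18 (adjusted p = 0.846). Per2 and Hlf each stood at 0.17, with adjusted p of 0.813 and 0.735. Tef had a difference of 0.08. The Period gene Per1 had a wide interval, from -0.21 to 0.42 around 0.10, and its low index arrays ran from 9.20 to 10.89. Cry2, which encodes a cryptochrome, had a difference of -0.03 (95% CI -0.17 to 0.12).

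The clock positive arm list, made of the activators and of genes with a late phase, held 7 genes, of which 1 was called lower, beside 0.0134% of all genes called lower. Its median difference was -0.045. Nfil3, which encodes the D-box repressor, was the called gene. It lay between 9.28 and 10.65 in the low index group (median 9.77) and between 8.82 and 9.44 in the high index group (median 9.16), so 10 of 14 high index arrays were below every low index array. The difference was -0.59 units (SE 0.104, limma adjusted p = 0.0341), with -0.63 in batch 1 and -0.55 in batch 2. Npas2, the partner of ARNTL that can stand in for CLOCK, had medians of 8.78 and 8.52 and a difference of -0.25 (95% CI -0.45 to -0.05, adjusted p = 0.78). Clock had a difference of -0.04 (95% CI -0.16 to 0.07) and Cry1 one of -0.00 (95% CI -0.10 to 0.10). The receptor genes Rora and Rorb had differences of -0.06 and 0.01, each with an interval that included 0.

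**Figure D2:**
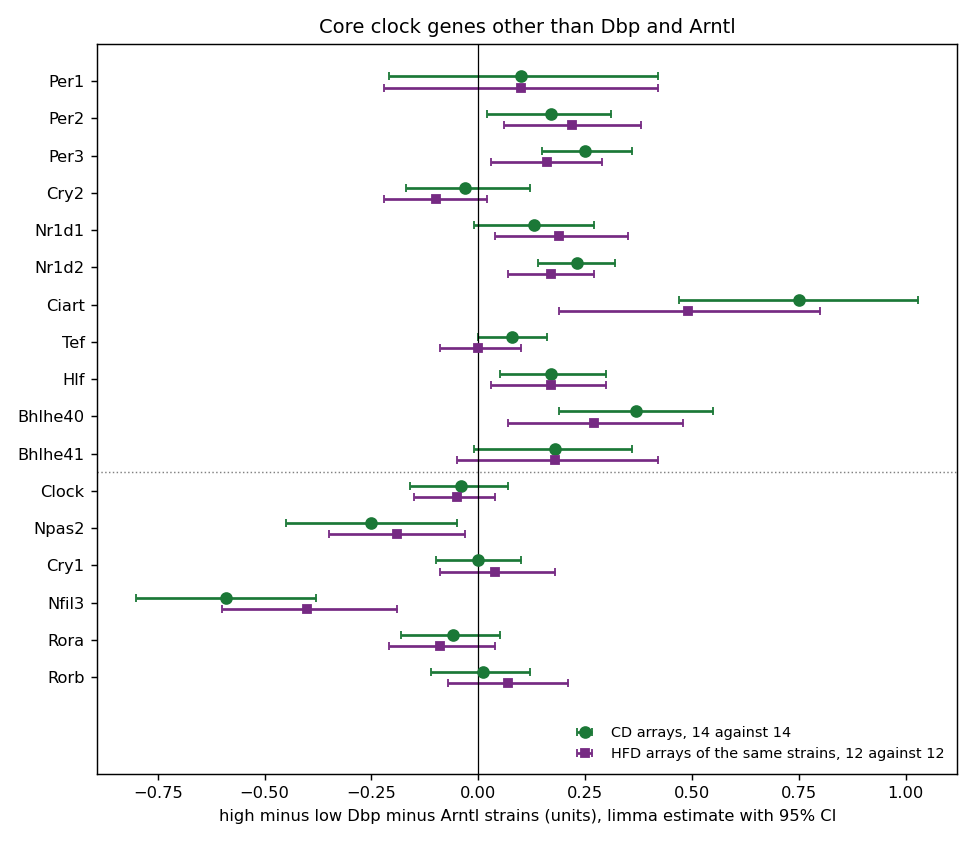
Difference between strains with a high and a low clock index (units, limma estimate with 95% confidence interval) for 17 core clock genes, in the 28 CD arrays (green circles) and in 24 HFD arrays of the same strains (purple squares). Genes of the negative arm are above the dotted line and genes of the positive arm below it. Ciart and Nfil3 lie farthest from 0 on both diets.

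Promoters of a few genes that went with the index are shown because they hold the elements through which the loop is known to act. Windows of 250 bases before to 50 after a gene's start were taken from RefSeq (GRCm38.p6), and 3 motifs were searched on both strands, the E-box CACGTG, the D-box TTATGTAA and the ROR element core TAGGTCA. No pair of these motifs overlapped in the windows printed, in which capitals mark each match. An E-box stood in 7.15% of all 32851 windows, a D-box in 0.938% and a ROR element core in 2.61%. Of the 20 core clock genes, Dbp and Arntl included, 17 had a window, of which 5 held an E-box, 1 a D-box and 2 a ROR element core. Ciart (chr3:95882179-95882478, minus strand) held 3 E-boxes, Per3 (chr4:151044616-151044915, minus strand) held 2 D-boxes, and Coq10b (chr1:55052520-55052819, plus strand) held 1 of each. Arntl (chr7:113207261-113207560, plus strand) held 1 ROR element core after its start, and Nfil3 (chr13:52980990-52981289, minus strand) held 1 before it, read on the opposite strand. The windows printed were picked because they hold a motif. The other core clock genes with an E-box were Per1, Tef, Bhlhe41 and Cry1. Their CD differences were 0.10, 0.08, 0.18 and -0.00, and none of them was called. Whether a motif goes with following the index was not tested. Among the other genes with the highest or lowest r, Asb2, Ppp1r3c and Tceal1 held an E-box and Fam124b a ROR element core. The windows of Nr1d2, Usp2, Slc16a9, Rpa3, Tob1, Pcgf3, Pi4k2a, Ccn1, Ankrd9 and Miga2 held none of the 3, nor did those of Dbp and Lrrc30. This says only that these letters are not in those windows. No window was matched to A630005I04Rik.
Ciart: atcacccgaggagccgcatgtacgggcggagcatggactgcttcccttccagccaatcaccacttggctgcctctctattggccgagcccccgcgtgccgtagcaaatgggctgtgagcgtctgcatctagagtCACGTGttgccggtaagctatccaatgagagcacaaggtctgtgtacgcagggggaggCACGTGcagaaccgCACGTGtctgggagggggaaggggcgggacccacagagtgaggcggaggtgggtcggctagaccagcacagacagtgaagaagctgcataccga
Per3: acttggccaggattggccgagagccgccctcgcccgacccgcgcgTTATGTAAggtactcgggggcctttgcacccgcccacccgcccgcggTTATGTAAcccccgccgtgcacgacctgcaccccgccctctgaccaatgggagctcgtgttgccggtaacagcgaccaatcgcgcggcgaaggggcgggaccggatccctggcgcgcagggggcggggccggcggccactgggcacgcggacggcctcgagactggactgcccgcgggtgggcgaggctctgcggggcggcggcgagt
Coq10b: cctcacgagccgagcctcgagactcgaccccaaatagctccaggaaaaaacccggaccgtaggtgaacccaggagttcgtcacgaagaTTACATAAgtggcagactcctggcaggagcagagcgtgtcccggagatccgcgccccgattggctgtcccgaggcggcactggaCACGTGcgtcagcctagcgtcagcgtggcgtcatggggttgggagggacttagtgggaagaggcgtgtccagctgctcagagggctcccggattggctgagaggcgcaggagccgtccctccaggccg
Arntl: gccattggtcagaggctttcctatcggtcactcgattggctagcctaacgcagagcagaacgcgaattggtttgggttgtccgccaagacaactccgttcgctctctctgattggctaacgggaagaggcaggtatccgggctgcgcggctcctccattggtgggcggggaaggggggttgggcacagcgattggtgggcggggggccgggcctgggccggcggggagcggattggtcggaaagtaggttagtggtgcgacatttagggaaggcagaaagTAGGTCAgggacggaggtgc
Nfil3: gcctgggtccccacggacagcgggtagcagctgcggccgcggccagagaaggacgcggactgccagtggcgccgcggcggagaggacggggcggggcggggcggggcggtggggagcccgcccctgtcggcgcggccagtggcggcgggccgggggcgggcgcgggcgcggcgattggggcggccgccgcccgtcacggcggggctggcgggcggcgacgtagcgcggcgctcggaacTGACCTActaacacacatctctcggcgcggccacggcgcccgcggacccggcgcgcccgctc

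Outside the core clock, both called genes were lower in the high index group. A630005I04Rik lay between 7.69 and 8.56 in the low index group (median 8.18) and between 7.55 and 7.97 in the high index group (median 7.82). Its difference was -0.43 units (SE 0.0729, limma adjusted p = 0.0244). The row of this transcript stood next to that of Arntl in the deposited table, and over the 42 CD arrays its r was 0.769 with Arntl and -0.665 with Dbp. Its name was not matched to the RefSeq gene table used here, so its position was not analysed. Whether it shares signal with Arntl was not tested.

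Lrrc30, which encodes a leucine-rich repeat protein, lay between 11.34 and 12.04 in the low index group (median 11.70) and between 10.98 and 11.80 in the high index group (median 11.26). In 9 of 14 high index arrays it was below every low index array. The difference was -0.42 units (SE 0.0753, limma adjusted p = 0.0341), with -0.45 in batch 1 and -0.39 in batch 2. Its r with the index over all 42 arrays was -0.526, lower in size than that of the other called genes, and it was not called when the index was fitted as a slope (adjusted p = 0.245).

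**Figure D3:**
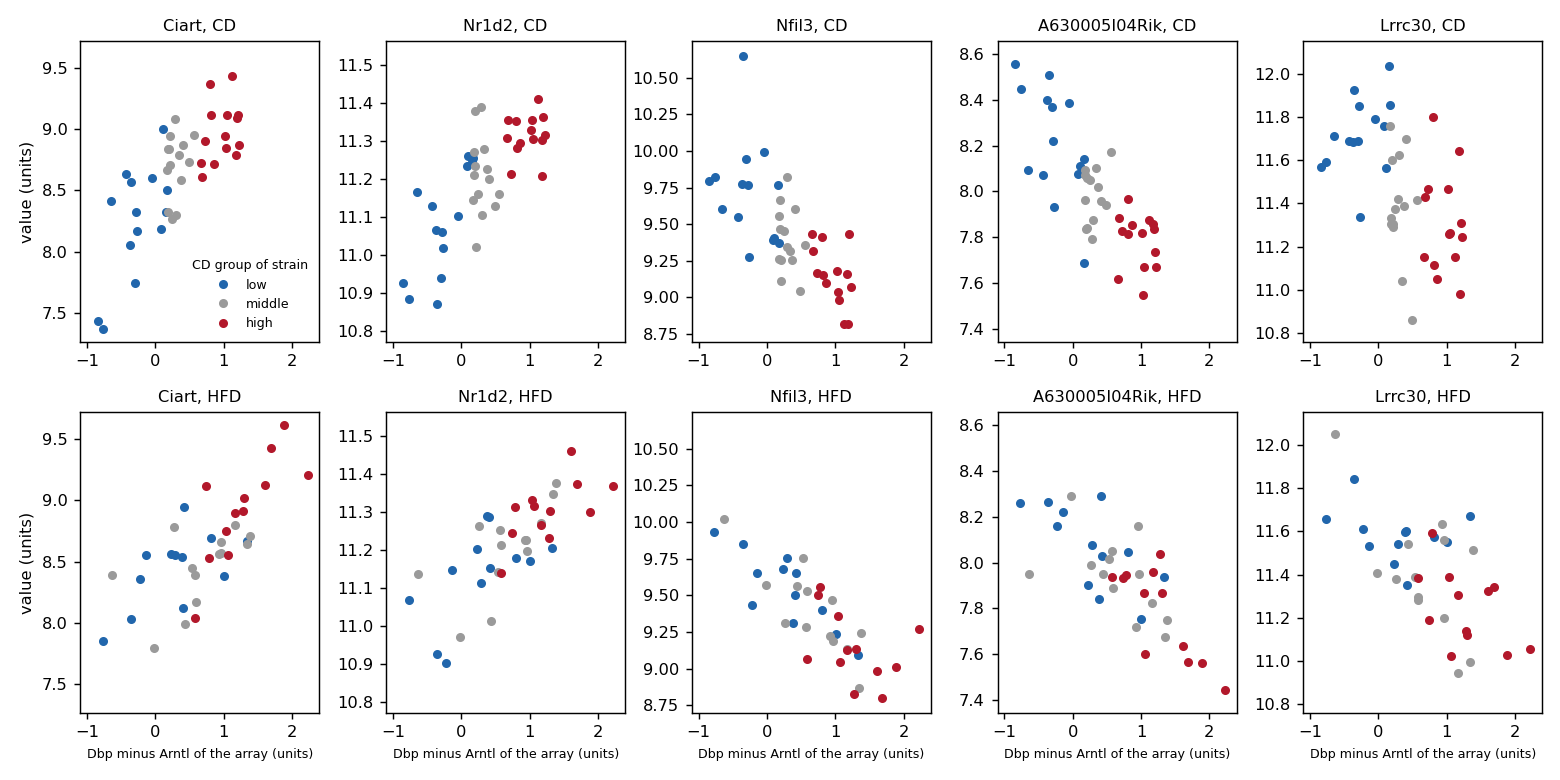
Value of the 5 genes called on CD (units) against the clock index of the same array (Dbp minus Arntl, units) in 42 CD arrays (top) and 37 HFD arrays (bottom). Each point is 1 pooled array, coloured by the group of its strain on CD. Ciart and Nr1d2 run upward and Nfil3, A630005I04Rik and Lrrc30 run downward along the index on both diets.

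Fitting the index as a slope over all 42 CD arrays used the 14 arrays between the groups as well, and called 9 genes (0.0403% of those tested), of which 4 were among the 5 above. Coq10b, whose protein binds coenzyme Q in mitochondria, changed by 0.32 per unit of the index (limma adjusted p = 0.0182). Usp2, which encodes a ubiquitin protease that acts on clock proteins, changed by 0.20 (adjusted p = 0.00244), and Per3 by 0.19 (adjusted p = 0.0462). Slc16a9, a monocarboxylate transporter gene, changed by -0.29 (adjusted p = 0.000247), and Fam124b by -0.21 (adjusted p = 0.025). A second, dimmer probeset of Coq10b had a difference of -0.09 between groups, and one of Slc16a9 a difference of 0.06, so those calls rest on 1 probeset each.

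The genes whose pattern over the 42 CD arrays was most like that of the index were, by Pearson r, Ciart (0.763), Nr1d2 (0.754), Usp2 (0.692), Coq10b (0.633), Per3 (0.618), Rpa3 (0.601), Bhlhe40 (0.59), Tob1 (0.584), Pcgf3 (0.579) and Tceal1 (0.57). The most opposed were A630005I04Rik (-0.773), Slc16a9 (-0.727), Nfil3 (-0.707), Fam124b (-0.633), Pi4k2a (-0.606), Asb2 (-0.601), Ccn1 (-0.593), Ppp1r3c (-0.592), Ankrd9 (-0.566) and Miga2 (-0.56). These values describe likeness over the same arrays that gave the index. On the HFD arrays, which took no part in that ranking, r with each array's own index was 0.697 for Tob1 and -0.653 for Ccn1, but -0.032 for Rpa3, -0.059 for Tceal1 and 0.126 for Miga2. A difference between diets was not shown for any of these genes, since none passed the index by diet interaction after adjustment.

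The clock index of a strain was related between diets. For the 37 strains with an array on each diet, the mean of each batch was first removed within each diet. The CD and HFD index then correlated with Pearson r = 0.685 (permutation p = 1e-05, adjusted p = 2.5e-05 over 5 tests). Spearman rho was 0.672 (permutation p = 1e-05). A p of 1e-05 is the smallest that 100000 draws can give. Without the 2 strains farthest from the median CD index, BXD61 and BXD68, r was 0.605. Within batches, r was 0.849 over the 12 strains with both arrays in batch 1 (permutation p = 0.00053) and 0.502 over the 17 with both in batch 2 (permutation p = 0.0417). It was 0.687 over the 8 strains whose arrays were in different batches (permutation p = 0.0599). With the batch means left in, r over the 37 strains was 0.685 and rho was 0.701. Whether a strain's pools on both diets were harvested on the same day or at the same hour is not given in the sources used here.

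**Figure D4:**
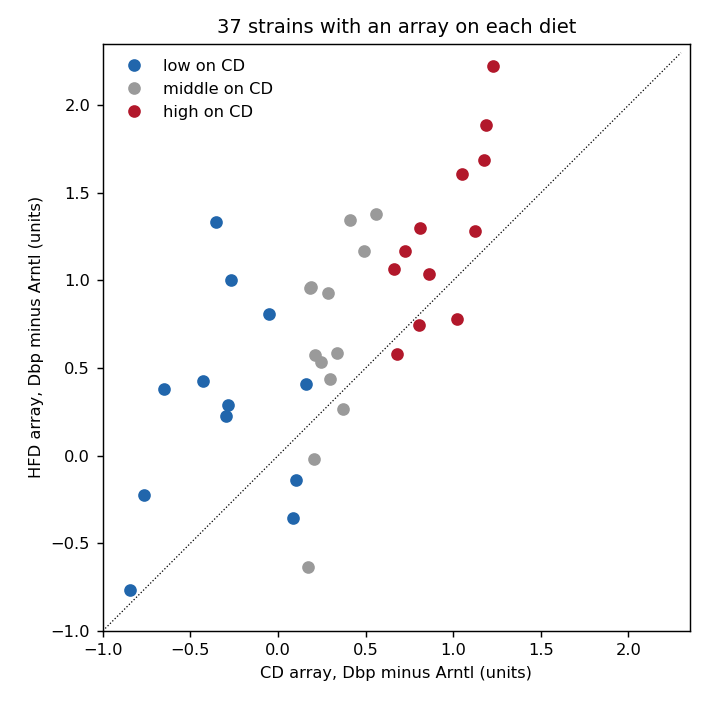
Clock index (Dbp minus Arntl, units) of the HFD array against that of the CD array for 37 strains, coloured by the group of the strain on CD. The dotted line marks equal values. CD and HFD values correlate with r = 0.685, and 29 of 37 points lie above the line.

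The index was higher on HFD than on CD in 29 of 37 strains, by 0.42 ± 0.503 units (mean ± SD; permutation p = 3e-05 by exchange of diets within strains, adjusted p = 5e-05). Strains of the high index group had an HFD index of 0.581 to 2.225 (median 1.224, n = 12) and those of the low index group one of -0.769 to 1.335 (median 0.335, n = 12). Their means differed by 0.998 units (pooled SD 0.547, permutation p = 0.00018, adjusted p = 0.000225). The groups overlapped, with 4 of 12 high index strains above every low index strain.

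In the HFD arrays of those same strains, which the choice of groups did not use, Dbp stood at a difference of 0.64 units (SE 0.139) and Arntl at -0.35 (SE 0.102). No gene was called by limma over the 22335 genes (0.0%), and 815 had an unadjusted p below 0.05. The methods' t-test also called 0, with 950 below 0.05. The genes called on CD stood on the same side of 0. Ciart stood at 0.49 (95% CI 0.19 to 0.80), Nr1d2 at 0.17 (95% CI 0.07 to 0.27), Nfil3 at -0.40 (95% CI -0.60 to -0.19), A630005I04Rik at -0.29 (95% CI -0.45 to -0.12) and Lrrc30 at -0.34 (95% CI -0.47 to -0.21). Lrrc30 had the lowest adjusted p of these, at 0.66. Its HFD values lay between 11.35 and 11.84 in low index strains and between 11.02 and 11.59 in high index strains.

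When each HFD array was given its own clock index, the slope called 474 genes, 145 higher and 329 lower with a higher index, or 2.12% of those tested. The count depended on the fit. It was 850 without dim probesets, those under the median of the mean values, and 18 when the 14 highest were set against the 14 lowest HFD arrays. Without dim probesets 2.22% of the genes tested rose and 4.55% fell, and with 14 against 14 arrays 0.0269% rose and 0.0537% fell. In the slope fit all 5 genes called on CD were among them, and so were 7 of the 9 called in the CD slope. A630005I04Rik had an r of 0.724 with Arntl on HFD, and whether the 2 share signal was not tested. Ciart changed by 0.45 per unit of the index (SE 0.0682, limma adjusted p = 0.000313), Nr1d2 by 0.14 (adjusted p = 0.00106), Nfil3 by -0.36 (adjusted p = 1.78e-05), A630005I04Rik by -0.25 (adjusted p = 0.000225) and Lrrc30 by -0.24 (adjusted p = 0.00515). Coq10b (0.14, adjusted p = 0.0811) and Fam124b (-0.06, adjusted p = 0.382) did not pass on HFD. Of the 11 negative arm genes 6 rose with the index on HFD, beside 0.649% of all genes. They were Per2 (0.22), Per3 (0.14), Nr1d1 (0.25), Nr1d2, Ciart and Bhlhe40 (0.28). In the positive arm 2 of 7 fell, Nfil3 and Npas2 (-0.20), beside 1.47% of all genes. With 14 against 14 HFD arrays, Per2 was the 1 negative arm gene called, and Nfil3 and Npas2 were called again.

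The slopes were not shown to differ between diets. The index by diet interaction called 0 genes by limma, while 2337 had an unadjusted p below 0.05. With strain as a replicate block it also called 0, and 2629 were below 0.05. For Nr1d1, whose slope was 0.11 on CD (adjusted p = 1.0) and 0.25 on HFD (adjusted p = 0.000953), the interaction had an unadjusted p of 0.0255. The index had a wider spread on HFD, with an SD of 0.678 against 0.563.

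Genes of muscle wasting and of FOXO signalling, which rise in fasted muscle, lay mostly below 0 on CD. Of 17 such genes on the array 15 had a difference below 0 between high and low index groups, with a median of -0.09, and none was called. The members named next were picked with their values known. On HFD 8 of the 17 fell with the array's own index, and none rose, beside 1.47% of all genes that fell. With 14 against 14 HFD arrays 1 fell, Trim63, beside 0.0537% of all genes. Without dim probesets 11 fell and 1 rose, beside 4.55% and 2.22% of all genes. Trim63, which encodes the muscle ubiquitin ligase MuRF1, had medians of 12.83 and 12.20 in low and high index groups on CD. The ranges overlapped there, from 11.61 to 13.52 (low) and from 11.78 to 12.81 (high). Its CD difference was -0.50 (SE 0.171, limma adjusted p = 0.709). On HFD it changed by -0.53 per unit of the index (SE 0.0782, limma adjusted p = 0.000293). Fbxo32, which encodes the ligase atrogin-1, had medians of 13.70 and 13.36 on CD, where it was not called. Its slope on HFD was -0.32 (adjusted p = 0.00499). Foxo1, the transcription factor gene that drives both, had a slope of -0.26 (adjusted p = 0.00414). The other 5 were Fbxo30, Bnip3, Sesn1, Ddit4 and the cell cycle inhibitor gene Cdkn1a. Cdkn1a had a CD difference of -0.66 (SE 0.176, adjusted p = 0.437). Nmrk2, a nicotinamide riboside kinase gene on the same list, stood at a difference of 0.79 on CD (SE 0.235, adjusted p = 0.59) and of 0.43 in HFD arrays of the same strains (adjusted p = 1.0).

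Glucocorticoid response genes were placed alike. Of 16 genes 14 had a CD difference below 0, with a median of -0.224, and none was called. On HFD 6 of 16 fell with the index and none rose, beside 1.47% of all genes that fell. With the 14 highest against the 14 lowest HFD arrays none fell, beside 0.0537% of all genes, and without dim probesets 9 fell, beside 4.55%. Fkbp5, which encodes a chaperone partner of the glucocorticoid receptor, lay between 9.02 and 10.18 in the low index group (median 9.79) and between 8.53 and 10.25 in the high index group (median 8.99) on CD. The groups overlapped, and its difference of -0.61 (SE 0.151) did not pass (limma adjusted p = 0.361). On HFD its slope was -0.52 (SE 0.0843, adjusted p = 0.000738). Glul, the glutamine synthetase gene, had a CD difference of -0.50 (adjusted p = 0.545) and an HFD slope of -0.32 (adjusted p = 0.0154). The others that fell on HFD were Zbtb16, Cebpb, Cebpd and Pik3r1, also picked with their values known. Zbtb16 was not called there after quantile normalizing. Per1, both a clock gene and a glucocorticoid target, had an HFD slope of 0.01 (adjusted p = 0.961).

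**Figure D5:**
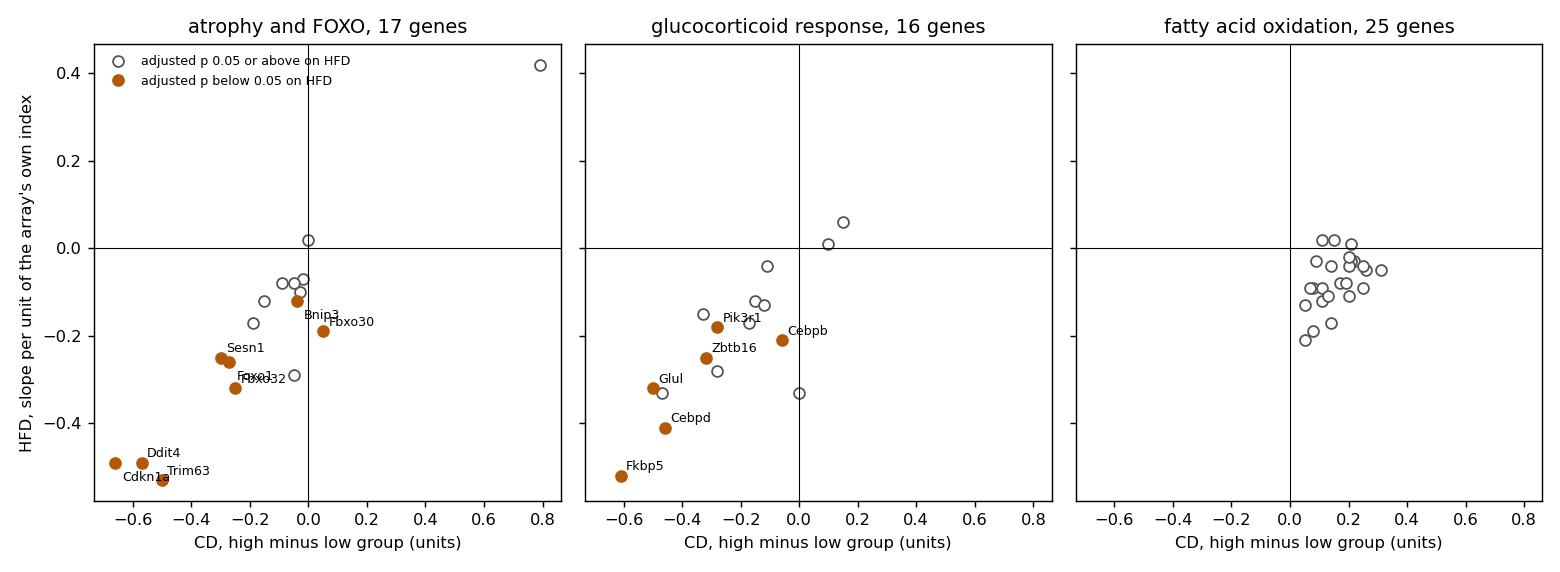
Difference between the high and low index groups on CD (units) against the slope on the array's own clock index on HFD (units per unit of index), for the genes of 3 lists. Filled points passed limma's adjusted p of 0.05 on HFD, and none passed on CD. The atrophy and glucocorticoid genes lie mainly in the lower left, while fatty acid oxidation genes lie to the right of 0 on CD and near or below 0 on HFD.

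Fatty acid oxidation genes had a CD difference above 0 in 25 of 25 members, from 0.05 to 0.31 around a median of 0.149, but none was called. The 2 with the largest difference were Fabp3, a fatty acid carrier gene, at 0.31 (SE 0.107, limma adjusted p = 0.733) and Acaa2, a thiolase gene, at 0.26 (SE 0.101, adjusted p = 0.773). In HFD arrays of the same strains the median was 0.015, and the median slope on the HFD index was -0.076 with 0 of 25 called. The interaction had an unadjusted p of 0.0254 for Fabp3 and 0.0453 for Acaa2, and no gene passed after adjustment. Genes of this list share regulators, so 25 members are not 25 separate observations. In the same CD groups 11 of 11 slow fibre genes also lay above 0, with a median of 0.38. Whether the 2 lists varied together was not tested.

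The remaining lists also had no member called between the high and low index groups on CD. Some of their genes were called in the HFD slope, in which 0.649% of all genes were called higher and 1.47% lower. With 14 against 14 HFD arrays none of the genes of these lists was called. The 11 slow fibre genes lay above 0 with a median of 0.38, yet the spread within groups was wide. Myl3, a slow myosin light chain gene, lay between 8.35 and 11.76 in the low index group and between 8.65 and 11.06 in the high index group, and had a difference of 0.46 (95% CI -0.19 to 1.10). Myl2 had one of 0.40 (95% CI -0.17 to 0.97). In HFD arrays of the same strains the median of the slow fibre genes was 0.351, and their median slope on the HFD index was 0.002. As with fatty acid oxidation, 11 members are not 11 separate observations. Over the 11 fast fibre genes the median on CD was -0.026, with Myh2 at 0.30 and Casq1 at -0.09. Among 16 muscle clock output genes the median was 0.02, and Cdkn1a (-0.66) and Coq10b (0.39) had the largest differences. On HFD 2 of the 16 fell, Fbxo32 and Cdkn1a. Among 13 clock accessory and systemic output genes the median was 0.016, with Usp2 at 0.24 and Nampt at 0.10, and on HFD 1 of the 13 fell with the index and 1 rose, Usp2 (slope 0.14, adjusted p = 0.0113).

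In the 18 glucose and glycogen genes the median was -0.029. Ppp1r3c, which encodes a glycogen-targeting subunit of protein phosphatase 1, had medians of 12.36 and 11.64 and a difference of -0.67 (SE 0.151, adjusted p = 0.209), while Gpd1 stood at -0.11. On HFD the slope of Ppp1r3c was -0.31 (limma adjusted p = 0.0505), and it was called without the batch term, without dim probesets and without BXD63. The 17 lipid synthesis genes had a median of -0.039. Fasn, the fatty acid synthase gene, stood at -0.49 on CD (adjusted p = 0.59) and at 0.09 in HFD arrays of the same strains, and Elovl6 at -0.21 and 0.26. Elovl6 was the only member called on HFD, where it rose with the index (0.17, adjusted p = 0.0476), and it was not called there after quantile normalizing. The 17 heat shock genes had a median of 0.066, with Hspa1a at 0.37 and Hspa1b at 0.17. Of the 17, 1 gene, Serpinh1, rose on HFD, beside 0.649% of all genes. The cold-inducible pair Cirbp and Rbm3 stood at -0.06 and 0.02, and Cirbp fell on HFD (slope -0.17, adjusted p = 0.0118). The 19 immediate early genes had a median of 0.028, with Nr4a1 at 0.34 and Btg2 at -0.26. Btg2 fell on HFD (slope -0.31, adjusted p = 0.00865), together with Jun without dim probesets, without the batch term or without BXD63. Cirbp and Btg2 stand beside 1.47% of all genes that fell, and neither was called with 14 against 14 HFD arrays.

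Markers of tissue makeup were set beside these results. Skeletal muscle genes were bright on all 28 arrays, as the mean of 8 muscle identity genes lay between 14.35 and 14.45 in the low index group and between 14.29 and 14.46 in the high index group. No marker gene was called on CD. The mean of 13 adipocyte genes lay between 9.23 and 9.87 (low) and 9.21 and 9.89 (high), that of 8 endothelial genes between 9.56 and 10.37 (low) and 9.78 and 10.36 (high), and that of 9 macrophage genes between 8.54 and 8.99 (low) and 8.55 and 9.12 (high). Median differences were -0.052 for adipocyte, 0.035 for endothelial, 0.018 for macrophage and 0.035 for 7 fibroblast genes. For 7 red blood cell genes the median was -0.105, for 6 Schwann cell and nerve genes 0.046, for 6 neutrophil and marrow genes -0.11 and for 6 T cell genes -0.032. The mean of the neutrophil and marrow genes lay between 6.80 and 7.85 on the 28 arrays and that of the T cell genes between 6.87 and 7.25, while the mean of 1097 olfactory receptor genes lay between 6.01 and 6.27. That list, set here as a technical comparison, had a median difference of -0.017. Of the 6 T cell genes 1, Cd3e, rose with the index on HFD and none fell, beside 0.649% and 1.47% of all genes. Among the olfactory receptor genes 6 rose and 1 fell there, which is 0.547% and 0.0912% of them beside 0.649% and 1.47% of all genes. With the mean of the muscle identity genes as a term in the CD fit 5 genes were called, of which 4 were among those above, and with the mean of the olfactory receptor genes 6 were called, including all 5. The part of the other marker levels was not tested.

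The 5 calls on CD stood close to the threshold. Leaving out 1 array at a time, the count ran from 0 to 8. It was 0 without DBA/2J, BXD68, BXD55, BXD60 or BXD69. A630005I04Rik was called in the other 23 of 28 runs, against 13 for Nfil3, 12 each for Ciart and Lrrc30 and 4 for Nr1d2. The r of A630005I04Rik with Arntl, which helped to set the groups, was 0.769, so its calls may not be independent of the index. Within batch 1 or batch 2 alone 0 genes were called, with 910 and 2497 at an unadjusted p below 0.05, while the differences of all 5 genes kept their sign.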

How the data were processed

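RNA from quadriceps of male mice was hybridised to Affymetrix Mouse Gene 1.0 ST arrays, 1 pool per strain and diet. The deposited values are a score per probeset that the authors rescaled to a mean of 8.0 and an SD of 2.0 on every array. Affymetrix Expression Console is named in the submitters' processing notes, while the log base, summarization and any batch correction are not given in the sources used here. The number of arrays, not a counting depth, limits the precision, and animals within a pool were not measured apart. All value columns were used, and the column for BXD92 on chow was matched to the only fitting title, BXD92a.

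A gene with several probesets (2013 of 22335) was represented by the one with the highest mean. The clock index was Dbp minus Arntl. Each comparison was fitted with limma 3.58.1 (lmFit and eBayes) with the array batch, as the titles name it, as a term. P-values were adjusted by the Benjamini-Hochberg method over all 35556 probesets, and calls were made below 0.05. Permutation tests were two-sided with 100000 draws. The fit of the CD groups was run on simulated data with known shifts. Those values were independent between genes and did not set the groups, so this does not bear on groups chosen by measured genes.

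The members, lists and tests were chosen with earlier results of these data known. Named genes were Dbp and Arntl, all core clock genes, the called genes (at most 10 in each direction), the called members of other lists or else the 2 with the largest difference, and the 10 highest and lowest r with the index. In the lists, 2 genes count in the totals and their own values are not reported here. Current names came from a RefSeq gene table (GRCm38.p6), which left 1166 symbols unmatched. Pairing of diets comes from the strain names in the labels. Alternatives varied the batch term, group size, index genes, strains, normalization, filter on dim probesets and test. Software was Python 3.11.15 with scipy 1.17.1, pandas 2.3.3, numpy 2.4.6 and matplotlib 3.10.9, and R 4.3.3.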

Additional observations from a re-analysis of the deposited data

How the results depend on the processing

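The count of genes called between the CD groups was 5. It was 0 in batch 1 alone, 0 in batch 2 alone, 0 with 21 against 21 arrays, 0 without both parental strains (groups formed again), 0 with groups set by Dbp alone and 0 with an index of Nr1d1 minus Npas2. It was 2 by the methods' t-test, 3 without strain BXD63 (groups formed again), 3 with groups set by Arntl alone, 9 with the index as a slope and 9 after dim probesets, those under the median of the mean values, were removed. Leaving out 1 array at a time, an alternative chosen after seeing the data, gave 0 to 8, with 8 without BXD95. It gave 1 without C57BL/6J, BXD49, BXD80, BXD90 or BXD99, 2 without BXD43, BXD45, BXD63 or BXD87, and 3 without BXD61, BXD62, BXD70, BXD73 or BXD89. The calls were 2 higher and 3 lower, against 1 and 5 after quantile normalizing again and 2 and 2 after centring on the median. The cause of these shifts was not tested. The 5 called genes kept their direction under each of the 18 alternatives. On the HFD index the slope called 474 genes, 850 without dim probesets and 18 with the 14 highest against the 14 lowest HFD arrays. Counting list members under these alternatives, and the r over strains with arrays in different batches, were added after seeing the data. For the index across diets r was 0.687 (permutation p = 0.0599) over the 8 strains with arrays in different batches, and 0.685 over all 37.

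Small differences on CD changed sign. Cry1 stood at 0.039 in batch 2, 0.003 after quantile normalizing, 0.011 after centring, 0.024 without the parents and 0.001 with the muscle term. Cry2 stood at 0.014 with 21 against 21 arrays, and at 0.096 with Nr1d1 minus Npas2, where Rora stood at 0.03. Clock stood at 0.017 in batch 2. Rorb stood at -0.03 in batch 2, -0.013 without the parents and -0.003 with groups set by Dbp alone. With strain as a replicate block the index by diet interaction called 0 genes, as it did without.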
